A study of Homo sapiens with 6 samples.

Results

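The binding map of GABPA was compared between 2 control libraries of 1 cell line, parental A-375 cells and an A-375 clone with a knockout at ROSA26. Both are GABPA ChIP samples, and they are 2 of the 6 samples of the series. The regions compared are every peak of the 2 deposited lists, 3024 parental and 3857 ROSA26 peaks, and a peak counted as shared when it overlapped a peak of the other list by at least 1 bp. A-375 is an established human melanoma line with skin given as its tissue. The parental cells carry no knockout. The ROSA26 cells, titled No1, carry a knockout at a locus used as a neutral target, and per the labels' protocols such lines were grown from single sorted cells after transfection of Cas9 and guide RNAs, so the ROSA26 library stands for 1 clone. Chromatin was recovered with the same GABPA antibody in both. The third condition of the series, a knockout in the GABP B1 subunit with a TERT knock-in, and the input samples were not analysed here. There was 1 ChIP library per group, so no difference below has a replicate check, no test was made, and clone, library and genotype cannot be told apart.

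GABP is a transcription factor made of GABPA, which binds DNA through an ETS domain, and a partner made from the GABPB1 or GABPB2 gene, which brings the transactivating part and lets GABP form larger complexes. Its DNA element is built around the letters GGAA, most often as CCGGAAGTG, and adjacent copies can be occupied by a GABP complex with more than 1 GABPA unit. GABP is known as an activator of mitochondrial, ribosomal and other housekeeping genes, many of them with CpG-rich promoters and no TATA box. In melanoma and other tumours, point mutations in the TERT promoter are known to create new ETS sites that GABP can bind.

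The promoters below show what GABPA-bound sequence looked like in these cells. They are stretches of RefSeq promoter windows of GRCh38.p14, printed 5′ to 3′ on the strand of the gene and taken around the summit, the position of highest read pileup in a peak. Each runs at most 70 bases to either side of the summits and at most 20 bases past the transcription start. CGGAAG, the centre of the ETS element, or its reverse complement CTTCCG, is in capitals. The first 4 belong to the strongest peaks found in both lists.
AURKAIP1, minus strand, chr1:1375262-1375456: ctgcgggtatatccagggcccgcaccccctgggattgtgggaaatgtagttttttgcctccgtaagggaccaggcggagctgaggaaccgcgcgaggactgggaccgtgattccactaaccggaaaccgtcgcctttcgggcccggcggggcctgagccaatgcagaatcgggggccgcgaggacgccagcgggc
KCTD10, minus strand, chr12:109477342-109477485: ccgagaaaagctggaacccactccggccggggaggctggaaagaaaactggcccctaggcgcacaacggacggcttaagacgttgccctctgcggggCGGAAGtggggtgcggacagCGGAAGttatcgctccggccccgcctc
MRPS31, minus strand, chr13:40771171-40771276: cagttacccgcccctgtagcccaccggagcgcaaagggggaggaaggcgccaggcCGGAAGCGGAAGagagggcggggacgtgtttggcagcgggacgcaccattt
RPS7, plus strand, chr2:3575104-3575269: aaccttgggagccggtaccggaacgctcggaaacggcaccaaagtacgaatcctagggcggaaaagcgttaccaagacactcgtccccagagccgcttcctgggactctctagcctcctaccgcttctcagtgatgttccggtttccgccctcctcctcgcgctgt
The next pair belongs to genes with a peak in the ROSA26 list only.
HIBCH, minus strand, chr2:190319841-190319981: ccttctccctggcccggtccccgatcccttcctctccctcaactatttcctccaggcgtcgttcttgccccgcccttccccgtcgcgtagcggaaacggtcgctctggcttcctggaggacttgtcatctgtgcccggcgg
GTF2H2C, plus strand, chr5:69559941-69560079: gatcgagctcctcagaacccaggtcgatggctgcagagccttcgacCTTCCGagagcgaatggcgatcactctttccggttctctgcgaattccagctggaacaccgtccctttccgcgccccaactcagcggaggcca
The last pair belongs to genes with a peak in the parental list only.
TDP2, minus strand, chr6:24666880-24666958: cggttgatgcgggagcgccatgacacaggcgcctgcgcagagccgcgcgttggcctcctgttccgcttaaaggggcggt
SLC41A3, minus strand, chr3:126084105-126084220: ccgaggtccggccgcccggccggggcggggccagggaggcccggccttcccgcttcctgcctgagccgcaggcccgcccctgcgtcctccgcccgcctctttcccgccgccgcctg

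In the KCTD10 stretch, which lies between the starts of KCTD10 and UBE3B, the copies of CGGAAG began at bases 98 and 118, and the summits lay at base 71 (parental) and base 74 (ROSA26). MRPS31 held 2 copies in direct succession, from bases 56 and 62, with summits at bases 76 and 71. AURKAIP1 and RPS7 held no CGGAAG, but 1 and 5 copies of the shorter CGGAA on either strand, in both cases with another letter after it. GTF2H2C held 1 copy of CGGAAG, at base 47, and HIBCH, TDP2 and SLC41A3 held none. A match is a description of the letters and not a mapped binding site.

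Nearly all parental peaks were found again in the ROSA26 cells, whereas the ROSA26 list held many further weak peaks. Of the 3024 parental peaks, 2969 were shared, which is 98.2% (97.6 to 98.6, exact Clopper-Pearson 95% interval, as for all intervals here), and 55 were not. Of the 3857 ROSA26 peaks, 2963 were shared (76.8%, 75.5 to 78.1) and 894 were not. The shared peaks formed 2957 pairs of 1 parental and 1 ROSA26 peak. The remaining 6 ROSA26 peaks each spanned 2 parental peaks, and no parental peak spanned 2 ROSA26 peaks. The lists differ in length. When both were held to their strongest 3024 peaks by −log10 p, 93.3% of the parental and 93.1% of the ROSA26 peaks were shared. Because peaks pair almost 1:1, lists of equal length give near-equal shares by construction. The origin of the further ROSA26 peaks was not tested.

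The peaks found in 1 list only had low folds within their own list. The fold enrichment used here is the authors' value for each peak, the reads at the summit over the local background, and it ranks or describes peaks within a list. The median fold was 6.51 for shared and 2.99 for parental-only peaks, and in the ROSA26 list 7.62 for shared and 3.09 for ROSA26-only peaks. The strongest parental-only peak ranked 1788th of its list by fold and the strongest ROSA26-only peak 1751st. All of the 100 strongest parental peaks had a ROSA26 peak. The number of reads at each summit, recovered from the fold and the −log10 p, had a median of 134 in shared and 62 in 1-list-only parental peaks, and of 156 and 61 in ROSA26 peaks. As exceptions, 8 ROSA26-only peaks held 553 to 698 reads, more than any shared ROSA26 peak (540), but with folds of 1.19 to 1.79 over a high local background, and none lay near a protein-coding start. Parental-only peaks reached 186 reads. The lowest −log10 q was 2.63 (parental) and 1.37 (ROSA26), and 24 of the 894 ROSA26-only peaks lay below the lowest parental value.

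Summits of the same peak fell close together in both libraries. Over the 2957 pairs the median distance between the parental and the ROSA26 summit was 17 bp (quartiles 8 and 33 bp). Of the pairs, 65.5% lay within 25 bp (63.8 to 67.3), 89.5% within 50 bp (88.3 to 90.6) and 98.3% within 100 bp (97.8 to 98.7). In 50 pairs the summit was the same base, and in 50 it moved by more than 100 bp. The shift had no common direction, with a signed median of 1 bp toward higher coordinates in ROSA26. Distances were smaller in stronger peaks, with a median of 25, 18, 15 and 14 bp from the lowest to the highest of 4 equal groups by parental −log10 q.

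The large shifts lay in wide peaks or in weak ones. The largest, 545 bp, was in a peak between PCSK7 and RNF214 on chromosome 11 (117231849 to 117232882 in the parental list). PCSK7 encodes a proprotein convertase. Its parental and ROSA26 peaks were 1034 and 1133 bp wide, with 76 and 112 reads. A peak on chromosome 19 (522981 to 523880), near no protein-coding start, had a summit 512 bp lower in ROSA26, with 97 and 81 reads. A peak near ALG3, a mannosyltransferase gene of N-glycan assembly, and EEF1AKMT4 had a shift of 445 bp toward lower coordinates and widths of 1086 and 1331 bp. LAMTOR5, a Ragulator subunit gene, had one of the weakest pairs, with 49 and 57 reads and a shift of 294 bp. GABPB2, the gene of the second B subunit, had 69 and 95 reads and a shift of 267 bp. The lists give 1 summit per peak, so a further maximum inside a wide peak was not analysed here.

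Peaks were wider in the ROSA26 list. The ROSA26 peak was the wider of the pair in 2834 of 2957 pairs (95.8%, 95.1 to 96.5), narrower in 119 and equal in 4. The median widths were 589 bp (parental) and 687 bp (ROSA26), and the median difference within a pair was 104 bp (quartiles 62 and 149 bp). The difference was present at each strength, with medians of 124, 96, 95 and 102 bp from the lowest to the highest of 4 equal groups by parental −log10 q. The part of read depth and of the peak caller in this difference was not tested. The largest gains were at MTA2, a subunit gene of the NuRD complex (401 parental and 1115 ROSA26 bp), at GPR108 (535 and 1200 bp), and at ZNF687, a zinc finger gene (423 and 1058 bp). The shared peak of YRDC, which acts in tRNA modification, and C1orf122 measured 549 and 1124 bp, and that of HNRNPF, an RNA-binding splicing factor gene, 418 and 984 bp. The summits of these 5 peaks moved by 1 to 36 bp. The largest loss was a peak on chromosome 10 (132965023 to 132965862) near no protein-coding start, with a parental width of 840 and a ROSA26 width of 546 bp and 134 and 58 reads. UFM1, a ubiquitin-like modifier gene (769 and 603 bp), and a peak on chromosome 20 (63116217 to 63116899, 683 and 517 bp) came next with the same loss of width.

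**Figure D1:**
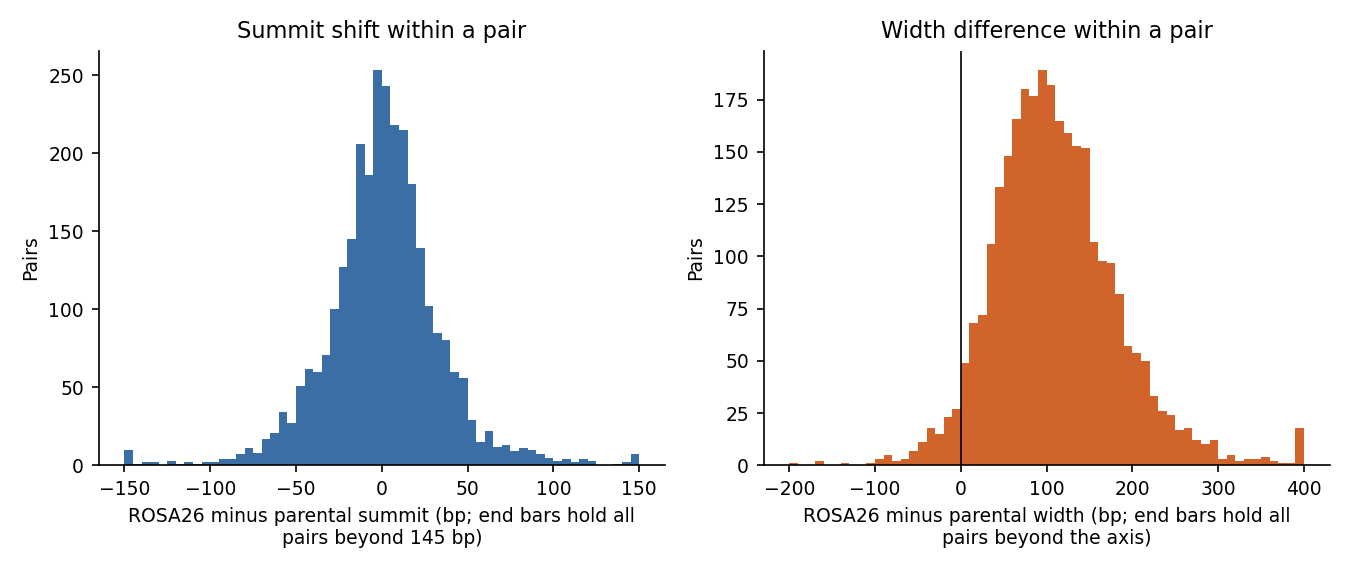
Left, ROSA26 minus parental summit position in bp for the 2957 pairs, in bars of 5 bp. Right, ROSA26 minus parental peak width in bp, in bars of 10 bp. The shifts centre on the median of 1 bp, and the width differences lie mostly above 0 with a median of 104 bp.

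Shared peaks sat at transcription starts, most of them just upstream. A protein-coding start lay within 1 kb of the summit in 85.4% of the shared parental peaks (84.1 to 86.7) and 85.5% of the shared ROSA26 peaks (84.2 to 86.7). For 4159 of 19970 genes no start is listed, and either end of the gene span counted as a start here and below. For the ROSA26-only peaks the share was 61.7% (58.5 to 64.9), and for the 55 parental-only peaks 34.5% (22.2 to 48.6). Positions between genes held 6.80% of the shared parental and 6.75% of the shared ROSA26 peaks, against 22 of the 55 parental-only peaks and 21.8% of the ROSA26-only ones. Where RefSeq gives a start and its strand, the median summit lay 39 bp upstream of the start in both shared sets (2210 parental and 2206 ROSA26 summits), and 80.6 and 82.1% of them lay upstream. Within 50 bp of the start were 50.3% of the parental (48.2 to 52.4) and 51.6% of the ROSA26 shared summits (49.5 to 53.7), against 36.7% of the 461 ROSA26-only summits (32.3 to 41.2). A single peak often lay at the starts of neighbouring genes, since 564 of 2556 parental and 657 of 3085 ROSA26 peaks near a start reached 2 or more genes.

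The ETS element was far more frequent in the marked promoters than in the others, and its frequency followed peak strength. A gene is called marked when a summit lies within 1 kb of its start. CGGAAG on either strand was present in 75.7% of the 300-base promoter windows of genes marked in both lists (74.0 to 77.3, 2648 genes with a window). It was present in 50.8% of those marked in ROSA26 only (46.4 to 55.1, 520 genes), 37.5% of those marked in parental only (18.8 to 59.4, 24 genes) and 15.2% of those marked in neither (14.5 to 15.8, 12619 genes). Over all 22131 windows the share was 23.7%. The 9 letters CCGGAAGTG, which contain CGGAAG, were found in 19.4, 6.92, 4.17 and 0.468% of the same classes and in 3.09% of all windows. The 4 letters GGAA alone were in 99.3% of the windows of genes marked in both and in 95.2% of all windows. The median GC content was 63.7, 64.8, 61.3 and 62.3% in the same order of classes. The frequency of CG pairs, of which CGGAAG holds 1, was not counted, and the part of base composition in the motif shares was not tested. For a marked gene with several listed starts the window nearest the summit was used, and for an unmarked gene the first listed one. Among genes with 1 listed start the shares of CGGAAG were 76.5, 52.6, 35.3 and 15.01%.

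Stronger peaks lay over promoters with more copies. In 4 equal groups by parental fold, from weakest to strongest, CGGAAG was present in 62.7, 74.1, 78.9 and 87.3% of the windows of genes marked in both lists, and 18.1, 27.1, 42.3 and 58.9% held 2 or more copies. CCGGAAGTG rose along the same groups from 10.3 to 29.0%. The element also lay close to the summit. In the 1821 windows that held both summits and a CGGAAG, the nearest copy was centred a median of 14.5 bp from the parental and 15.5 bp from the ROSA26 summit. Of these, 60.3% of the parental and 60.2% of the ROSA26 summits were within 20 bp, against 20.2% of all positions in the same windows. That 20.2% counts all positions alike, whereas summits gathered just upstream of starts. The part of this gathering in the contrast was not tested. The tandem copies of MRPS31 and the spaced copies of KCTD10 printed above belong to the strongest group, as do AURKAIP1 and RPS7, which lack the 6 letters in the printed stretch.

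**Figure D2:**
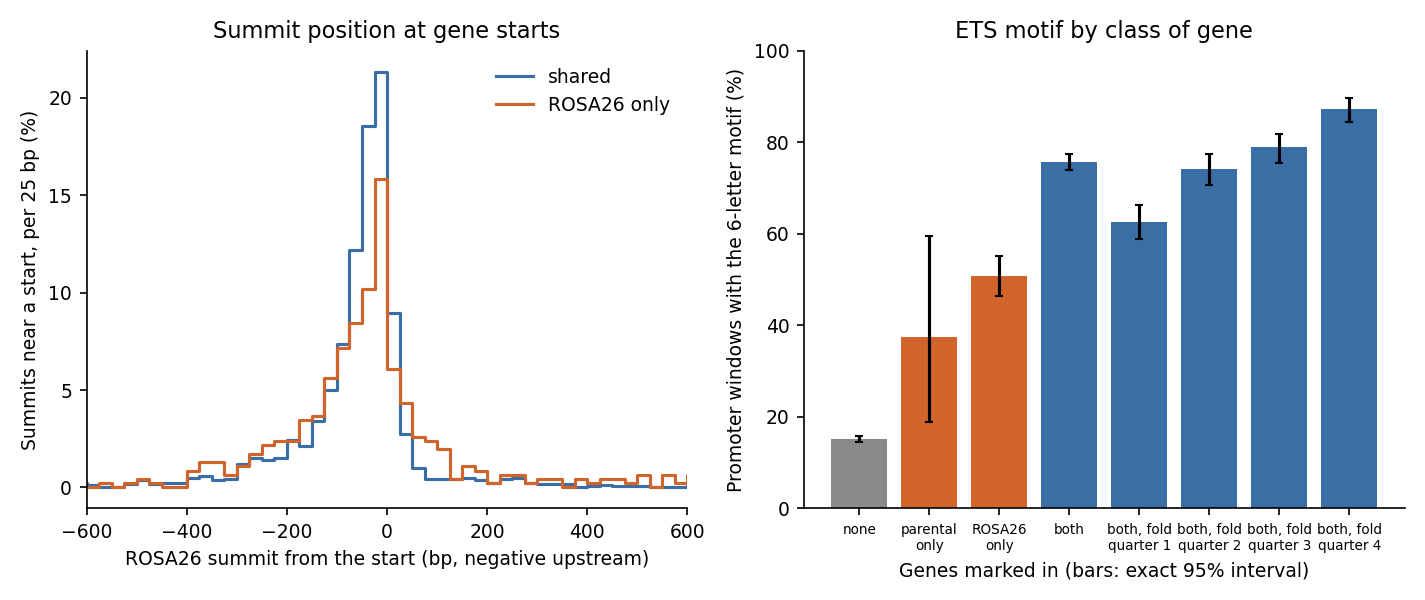
Left, position of ROSA26 summits relative to the nearest start in bp (negative values upstream), as a percentage of summits per 25 bp, for 2206 shared and 461 ROSA26-only summits. Right, percentage of 300-base promoter windows that hold the 6-letter ETS motif by class of gene and, for genes marked in both lists, by 4 groups of parental fold, with exact 95% intervals. Shared summits are more tightly gathered just upstream of the start, and the motif share climbs from 15.2% in unmarked genes to 87.3% in the strongest group.

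Among the 19970 protein-coding genes of the autosomes and X, the parental list marked 3112 (15.6%) and the ROSA26 list 3716 (18.6%). Both lists marked 3087 genes (15.5%), the ROSA26 list alone 629, the parental list alone 25, and neither 16229. The genes marked in both had a median parental fold of 7.07 and a median ROSA26 fold of 8.22. The genes marked in ROSA26 only had a median ROSA26 fold of 3.26 (1.94 to 5.91), and those marked in parental only a median parental fold of 3.17 (2.38 to 4.50). At equal list length the counts were 2987 in both, 125 in parental only and 185 in ROSA26 only, so the excess of ROSA26-only genes was smaller there.

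The genes of GABP itself were marked in both libraries. GABPA (chromosome 21, 25734972 to 25772460) had a peak 90 bp (parental) and 89 bp (ROSA26) downstream of its start, with 218 and 250 reads. The same peak lay 8 and 7 bp upstream of a start of ATP5PF, a subunit of ATP synthase transcribed the other way. GABPB1 (chromosome 15, 50275389 to 50355198) had 175 parental and 217 ROSA26 reads, with summits 281 and 301 bp downstream of the nearest listed start. GABPB2 (chromosome 1, 151070761 to 151125542) had 69 and 95 reads, and its parental fold of 2.74 was among the lowest of the list. No peak was listed within 1 kb of the start of TERT (chromosome 5, 1253167 to 1295068) in either library. A gene without a listed peak is below the limit of the peak caller and is not shown to be unbound.

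The 10 genes with the strongest peaks in both lists, by the lower of their 2 fold ranks, were held by 9 peaks. AURKAIP1, a mitochondrial ribosomal protein gene on chromosome 1, had 507 parental and 529 ROSA26 reads. MRPS31, also of the mitochondrial ribosome, had 411 and 452 reads, and its summits lay 11 and 16 bp upstream of the start. RPS7, a protein of the small cytosolic subunit, had 404 and 442 reads. The peak between KCTD10, an adaptor of cullin ubiquitin ligases, and UBE3B, a ubiquitin ligase, had 410 and 438 reads and lay 115 and 219 bp upstream of their starts in the parental list. AQR, an RNA helicase of the spliceosome, had 390 and 431 reads, and BRF2, an RNA polymerase III initiation factor, 390 and 410. TSSC4 had 343 and 387 reads, GOLGA3, a Golgi matrix protein gene, 363 and 453, and ZNF384, a zinc finger transcription factor gene, 457 and 507. The parental count was the lower in each of these 9 peaks, as it was at 2700 of the 3087 genes marked in both. The strongest peaks away from protein-coding genes reached the same range, with 343 and 374 reads at a peak on chromosome 13 (52194103 to 52194843) whose summit was the same base in both lists, and 365 and 396 reads at one on chromosome 16 (89240688 to 89241673).

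Gene lists were described by the share of their members marked in both lists, beside 15.5% of all protein-coding genes. The lists and their members were chosen with earlier results of these data known. Most lists were drawn by gene symbol, so a list need not hold every gene of its function, and some members lack the function named. Examples are EIF4EBP1, EIF4EBP2, EIF2AK3 and EIF2AK4 in the initiation factor list and AIMP2 in the aminoacyl-tRNA synthetase list. Of 25 lists, 20 lay above that share, 18 of them with their whole interval, and 5 lay below, 2 of them with their whole interval. The intervals treat genes as independent, although neighbouring genes that share a peak are counted separately. With each peak given to its nearest gene only, the genes marked in both fell from 3087 to 2493. The intervals of the lists were not recomputed in that way. For these reasons the counts of lists are a description and not a test. The lists hold 1742 genes, of which 587 were marked in both, 78 in ROSA26 only and 2 in parental only (ZNF107 and ZNF177, named after their values were seen). Over all protein-coding genes 3.15% were marked in ROSA26 only, and counts of such genes in a list stand beside that share. Each share describes these libraries, and the base composition or activity of the genes was not tested as a part of it.

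Each mitochondrial gene list had members marked in both peak lists. Of 77 mitochondrial ribosomal protein genes, 37 were marked in both lists (48.1%, 36.5 to 59.7), with a median parental fold of 9.51, and 4 in ROSA26 only. MRPL21, of the large subunit, had 343 and 371 reads, while MRPS16 had a peak in ROSA26 only, with 63 reads and its summit on the first base of the gene. Of 29 genes of mitochondrial DNA expression, 18 were marked in both (62.1%, 42.3 to 79.3) with a median parental fold of 11.1. These included MTERF4, a mitochondrial transcription termination family member (262 and 316 reads), and MTIF2, a mitochondrial translation initiation factor (358 and 372). TFAM, the protein that packages mitochondrial DNA, was marked in ROSA26 only, with 55 reads 17 bp upstream of the start. Of 30 genes of mitochondrial import, 18 were marked in both (60.0%), among them TIMM29 of the inner membrane translocase with 442 and 475 reads. TIMM9, an intermembrane space chaperone, was in ROSA26 only with 57 reads.

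The respiratory chain was marked in part. Of 37 complex I subunit genes, 14 were marked in both (37.8%, 22.5 to 55.2) and 2 in ROSA26 only. NDUFS3, a core subunit, had 428 and 470 reads and summits 71 and 78 bp upstream, and NDUFB3 had 211 and 264. NDUFC1 was in ROSA26 only with 67 reads. Of 8 genes in the complex I assembly list 3 were marked in both (37.5%, 8.52 to 75.5, an interval that includes the share of all genes), among them NDUFAF7 with 228 and 272 reads. Of 36 cytochrome c oxidase and assembly genes 18 were marked in both, including the copper chaperone SCO1 (257 and 303 reads) and COA6 (400 and 414). Of 20 ATP synthase genes 7 were marked in both (35.0%, 15.4 to 59.2, an interval that includes the share of all genes). ATP5MK had 371 and 428 reads, and ATP5F1B, the catalytic beta subunit, had a peak of 125 reads in ROSA26 only, 288 bp outside an end of its span.

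Of 82 cytosolic ribosome genes 52 were marked in both (63.4%, 52.0 to 73.8), with a median parental fold of 7.09, and 6 in ROSA26 only, of which RPS12 had the highest fold (3.83) with 66 reads. RPS18 had 357 and 368 reads. Of 40 genes in the aminoacyl-tRNA synthetase list 20 were marked in both. They include CARS1 (269 and 298 reads) and HARS1 (278 and 329), which charge tRNA with cysteine and histidine. SARS2, the mitochondrial seryl-tRNA synthetase, was in ROSA26 only with 74 reads. MRPS12, also on chromosome 19, had the same fold, reads and −log10 q and is counted in ROSA26 only in the mitochondrial ribosome list. Of 55 genes in the translation initiation factor list 23 were marked in both (41.8%). EIF4E2, a cap-binding protein, had 250 and 280 reads, and EIF5 was in ROSA26 only with 61.

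Of 61 spliceosome genes 36 were marked in both (59.0%, 45.7 to 71.4), with SF3A3 (423 and 452 reads) and LSM5 (299 and 315) foremost by their lower fold rank. Of 53 DEAD and DEAH box helicase genes 25 were marked in both (47.2%), among them DDX55 (359 and 403 reads) and DDX21 (242 and 286), and 6 in ROSA26 only. Of 33 Mediator genes 15 were marked in both (45.5%), with MED8 at 302 and 360 reads. Of 33 genes of RNA polymerases I, II and III 12 were marked in both (36.4%) and 5 in ROSA26 only. The one of these 5 with the highest fold, POLR2J3, has near-identical copies, so the origin of its 81 reads is uncertain. Of 48 proteasome genes 27 were marked in both (56.3%, 41.2 to 70.5), including the inhibitor PSMF1 with 372 and 398 reads, and the 1 gene in ROSA26 only was PSMB5, a catalytic subunit, with 80 reads. Of 24 genes of the COP9 signalosome and the anaphase-promoting complex 13 were marked in both (54.2%), with COPS2 at 356 and 386 reads. Of 47 DNA replication genes 17 were marked in both (36.2%), including the flap endonuclease FEN1 (277 and 328 reads), and MCM5, of the replicative helicase, was in ROSA26 only with 62. Of 509 zinc finger genes named ZNF, 213 were marked in both (41.8%, 37.5 to 46.3), 27 in ROSA26 only and 2 in parental only.

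Telomerase and shelterin genes were marked in both lists at 13 of 20 (65.0%, 40.8 to 84.6), although TERT was not. RUVBL1, an ATPase of telomerase assembly, had 366 parental and 296 ROSA26 reads, and SHQ1, which acts in H/ACA ribonucleoprotein assembly, had 245 and 226. Both lie on chromosome 3 and ran against the higher ROSA26 counts seen elsewhere. RTEL1, a helicase of telomere maintenance, had 450 and 503 reads and TERF2IP, a shelterin subunit, 152 and 202. Among 28 ETS family genes, 4 were marked in both (14.3%, 4.03 to 32.7), namely GABPA, ETV3 (190 and 226 reads), ELF2 (49 and 47) and ETV4 (61 and 68). ELK4 was in ROSA26 only with 95 reads. RTEL1, TERF2IP, ELF2 and ETV4 were named after their values were seen.

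The olfactory receptor and keratin genes were the 2 lists whose whole interval lay below the share of all genes. None of 18 melanocyte lineage genes was marked in both lists, although A-375 is a melanoma line. A count of 0 allows 3 counts of the total, a share of up to 16.7%, and the exact interval of this list (up to 18.5%) includes the 15.5% of all genes. RAB27A, a melanosome transport GTPase gene, was marked in ROSA26 only with 69 reads 33 bp upstream of its start. A ChIP peak does not measure expression, so the label of the cells was not checked by these genes. None of 392 olfactory receptor genes was marked, which allows up to 0.765%, and none of 55 keratin genes (up to 5.45%). KRT10 had a strong peak of 336 and 415 reads in the 2 lists, 951 and 956 bp inside 1 end of its span (chromosome 17, 40818117 to 40822614) and more than 1 kb from its listed start. KRT8 had a ROSA26 summit with 66 reads at 111 bp from an end of its span and no parental one. None of 9 marker genes of other skin cells was marked by its start, which allows up to 33.3% and does not set that list apart from all genes.

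**Figure D3:**
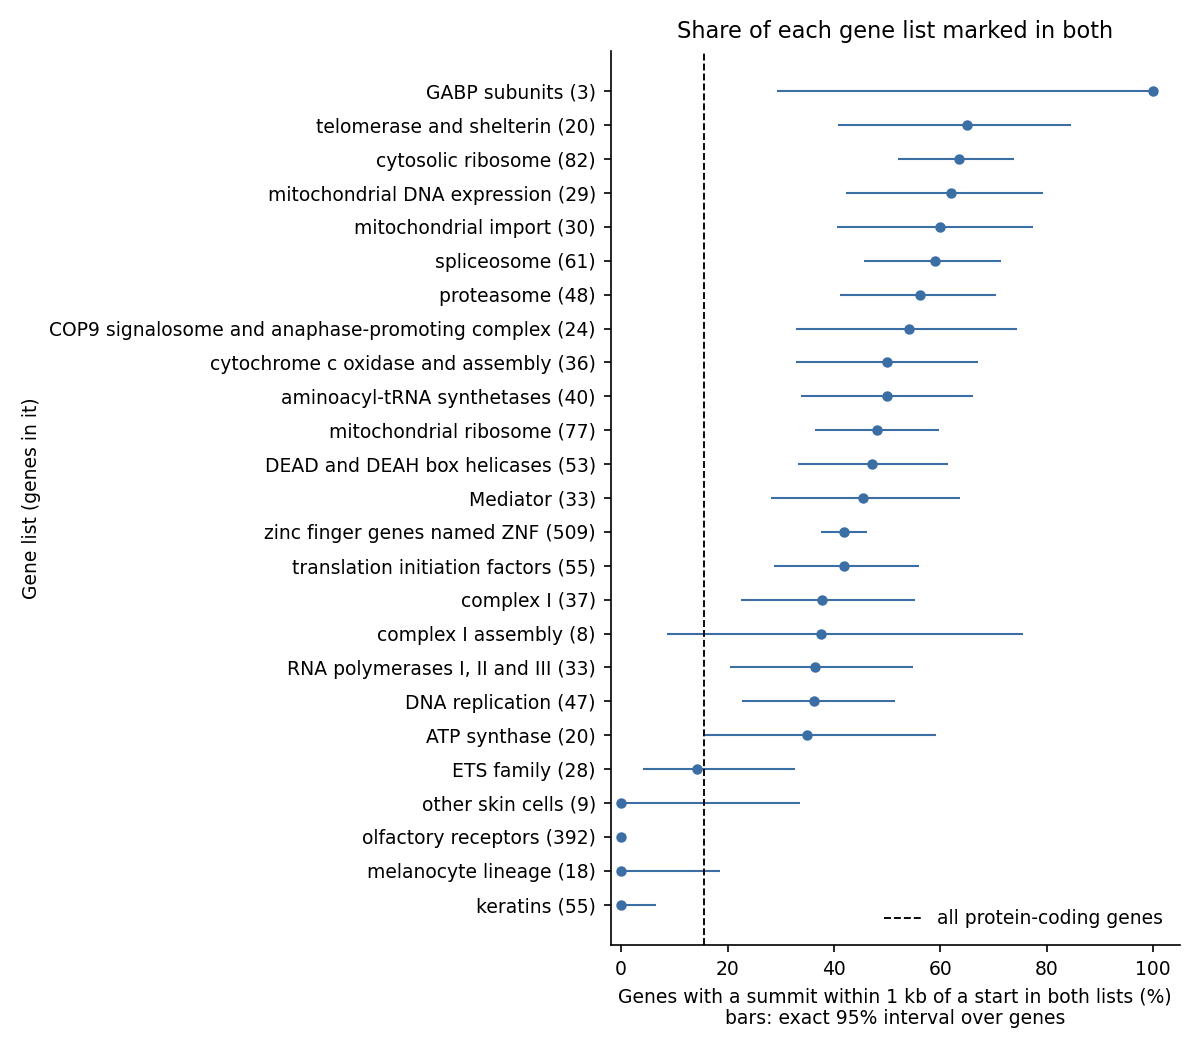
Percentage of the genes of each list with a summit within 1 kb of a start in both lists (horizontal axis), with exact 95% intervals, for 25 lists. The dashed line is the 15.5% of all protein-coding genes, and the olfactory receptor, keratin, melanocyte and other skin lists lie at 0.

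Among the 10 genes marked in ROSA26 only with the highest fold, a peak of 89 reads lay near ACAT2, a cholesterol pathway thiolase, and SOD2, the mitochondrial superoxide dismutase, and 442 bp downstream of the SOD2 start. HIBCH, an enzyme of valine breakdown, also had 89 reads, 85 bp upstream of its start. SOS1, an exchange factor that activates RAS, had the highest −log10 q of the 10 strongest such genes, with 125 reads 439 bp downstream of its start. MCRIP1 had 92 reads, KRABD4 84, FAM168B 83, and GTF2H2C, whose near-identical copies leave its reads uncertain, 85. All of these genes had no parental summit within 1 kb of a listed start, and the ROSA26 folds of the 10 genes, POLR2J3 and PSMB5 included, ran from 5.32 to 5.91 and lay below the median of the ROSA26 list (6.02).

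Few genes were marked in the parental list only, and for 2 of them the parental peak overlapped a ROSA26 peak. ZNF177, a zinc finger gene on chromosome 19, led with 89 reads 5 bp upstream of its start. PIP4K2B, a lipid kinase gene, had 76 reads 297 bp upstream, and ACOT13, a mitochondrial thioesterase gene, shared a peak of 57 reads with TDP2, a DNA repair phosphodiesterase gene. ANPEP, a membrane aminopeptidase gene, had 70 reads, KREMEN2 and PAQR4 shared a peak of 57 reads, and SLC41A3, a magnesium transporter gene, had 54. PFN1, which encodes the actin-binding profilin, and EXTL2 had parental summits of 70 and 92 reads at 0 and 86 bp from their starts, but these peaks overlapped a ROSA26 peak that spanned 2 parental peaks and had its summit elsewhere. For the other 23 of the 25 genes the parental peak had no overlapping ROSA26 peak.

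The median read count at paired summits was higher in ROSA26 on each of the autosomes and X except chromosome 3. Over all 2957 pairs the median log2 ratio of ROSA26 to parental reads was 0.19 (quartiles 0.09 and 0.32), with more reads in ROSA26 in 2524 pairs and fewer in 406. This ratio is not corrected for library depth, which the lists do not give. The commonest local background was 15.4 parental and 14.2 ROSA26 reads, and the part of depth in the ratio was not tested. The medians of the 22 other chromosomes lay between 0.14 and 0.27. On chromosome 3 the median was -0.25, with fewer ROSA26 reads in 129 of 167 pairs. The chromosomes and intervals were looked at after their values were seen.

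**Figure D4:**
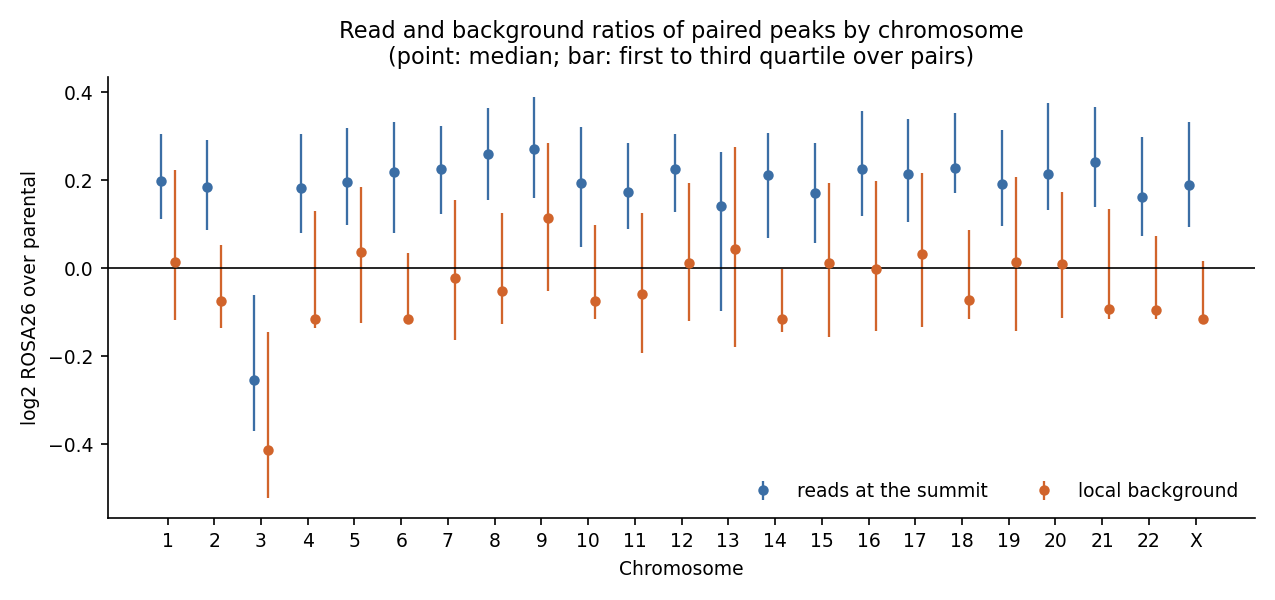
Median log2 ratio of ROSA26 to parental reads at paired summits (blue) and of local background (orange) for each chromosome, with bars from the first to the third quartile over pairs. Chromosome 3 is the only one with both medians below -0.2, and the read medians of the other 22 chromosomes lie between 0.14 and 0.27.

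The low counts ran over most of chromosome 3 and stopped within its long arm. Bins of 10 Mb from 20 to 30 Mb and from 60 to 100 Mb held fewer than 5 pairs and have no value, so these stretches are thinly sampled. From the first to the last parental summit of its low 10 Mb bins (3126951 to 159711855), 127 of 139 pairs had fewer reads in ROSA26, with median counts of 147 and 117 and a median log2 ratio of -0.29. In the 28 pairs from 167734980 to 197949922 the median was 0.19, the value of all pairs, and 26 had more reads in ROSA26. The local background moved with the reads, with a median log2 ratio of -0.44 in the low interval and -0.02 on the other chromosomes. The fold, in which the background is divided out, had a median log2 ratio of ROSA26 to parental of 0.13 in the interval and 0.22 on the other chromosomes. Elsewhere the fold was used within a list, and its ratio between the lists is given here as a description only. The interval held fewer ROSA26-only peaks, 10 of 148 (6.76%, 3.29 to 12.1) against 23.6% on the other chromosomes (22.3 to 25.1), and a smaller gain in width, 54 against 106 bp. Parental-only peaks numbered 7 of 146 in the interval and 46 of 2845 on the other chromosomes, and SLC41A3, described above, lies in it, as does the parental-only peak with the highest fold (75672387 to 75672885, 90 reads). The input libraries, which carry no antibody enrichment, were not analysed here on their own. Whether they gave the local background is not stated in the sources used here. The origin of the lower counts was not tested.

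**Figure D5:**
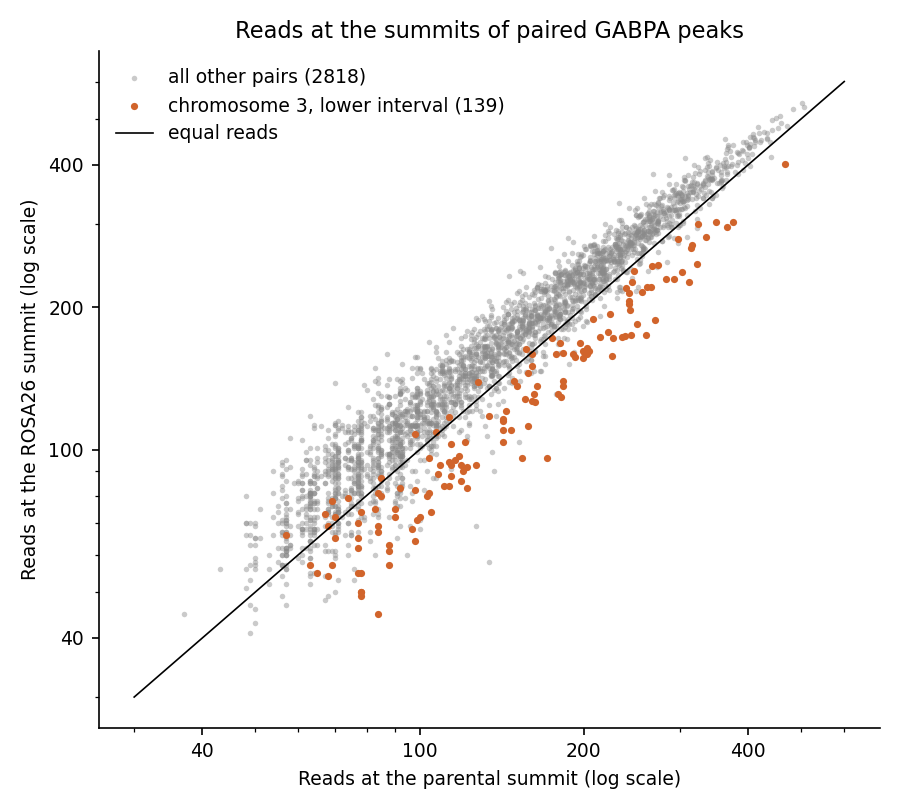
Reads at the ROSA26 summit (vertical axis, log scale) against reads at the parental summit (horizontal axis, log scale), 1 point per pair, with the line of equal reads. The 139 pairs of the chromosome 3 interval (orange) lie mostly below the line and most of the other pairs above it.

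The human counterpart of ROSA26 lies on the short arm of chromosome 3 between THUMPD3 and SETD5, inside the low interval. THUMPD3 (9363054 to 9386791), a tRNA-modifying methyltransferase gene, had 199 parental and 156 ROSA26 reads, 35 and 13 bp upstream of its start. SETD5 (9397615 to 9478154), a chromatin regulator gene, had 84 and 69 reads, 470 and 437 bp upstream. Both peaks were kept, and their lower counts are of the size seen over the whole interval. The position of the guide RNAs was not used here, and the lists do not show the edit. Further genes of the interval also had fewer ROSA26 reads, with RUVBL1 at 366 and 296 reads, TIMMDC1, counted in the mitochondrial import list, at 316 and 271, and EIF2A, an initiation factor gene, at 335 and 281. Elsewhere, of 213 bins of 10 Mb with at least 5 pairs, 13 had a median more than 0.25 below that of all pairs, 11 of them on chromosome 3, and 2 had a median more than 0.25 above it. The other low bins lay on chromosome 13 (96053388 to 114314307, 17 pairs, median log2 ratio -0.18, background -0.36). The high bins lay on chromosome 9 (92325409 to 108934407, 17 pairs, 0.52, background 0.32). ROSA26-only peaks were 4 of 20 in the chromosome 13 interval (20.0%, 5.73 to 43.7). In the chromosome 9 interval they were 12 of 28 (42.9%, 24.5 to 62.8). In the whole ROSA26 list their share was 23.2%.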

How the data were processed

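GABPA ChIP-seq peak lists of parental and ROSA26-knockout A-375 cells were compared, 1 library each, with no test. The submitters' processing notes name Bowtie2, SAMtools and MACS2 and the build hg38. Not given in the sources used here are their versions and thresholds, and whether the input served as control. The deposited lists give, as the authors' own values, the fold enrichment (a ratio over local background), the −log10 p and −log10 q of each summit, and an integer score derived from −log10 q. Coordinates are hg38, written 1-based.

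Reads at each summit were solved from the authors' fold and −log10 p by the MACS2 formula, with the pileup a whole number of reads times 1 scale per library. The scale was 0.860 for the parental and 1 for the ROSA26 list. All 3024 and 3857 summits were solved, and 92.9% and 100% came out as whole reads within 0.05. The commonest background was 15.4 parental and 14.2 ROSA26 reads, the only measure of depth the lists give. Summits held a median of 132 reads (37 to 507) and 122 reads (33 to 698). The solver and the pairing were checked on simulated data.

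Gene starts, windows (250 bases before to 50 after a start) and sequences came from RefSeq tables of GRCh38.p14. Of 19970 protein-coding genes 15811 had a listed start (22131 starts), and for the other 4159, all genes of chromosome 8 included, both span ends were used and no side is given. The 3 motifs were counted on both strands, and each longer one contains the shorter ones. Intervals are exact 95% intervals over peaks or genes and cover counting error only; adjacent peaks and PCR copies of a molecule are not independent.

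Named genes are the GABP genes, TERT and the ROSA26 neighbours, the 10 strongest genes in both lists by the lower of their fold ranks, and the 10 strongest in 1 list only. They also include the 5 largest shifts and width differences each way, the 5 strongest shared peaks away from genes, and from each list the 2 strongest genes marked in both and the strongest marked in 1 only. Of these, those that matter to a result are given. Printed promoters are the first of these genes off chromosome 8 whose summits lie in the window and whose stretch enters no other gene by more than 20 bases. The genes, lists and rules were chosen with earlier results of these data known. Overlap, strength, list length, distance and start choices were varied. Python 3.11.15, NumPy 2.4.6, SciPy 1.17.1, pandas 2.3.3 and matplotlib 3.10.9 were used.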

Additional observations from a re-analysis of the deposited data

How the results depend on the processing

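No paired analysis was possible because each group has 1 library, and no library can be left out. Shares of parental peaks shared (98.2%) became 97.6% with an overlap of at least 50% of both peaks, 96.3% with summits within 100 bp, 98.8% at a −log10 q of at least 20 and 93.3% with lists of equal length. The share of ROSA26 peaks (76.8%) became 78.8% at a −log10 q of at least 5, 80.3% at 20 and 93.1% at equal length. At a −log10 q of at least 20 the median summit shift was 15 bp in place of 17 and the median width difference 99 bp in place of 104. With a reach of 500 bp, 83.8% of the shared parental and 57.2% of the ROSA26-only peaks lay near a start, and with 2000 bp 87.2% of the shared parental ones. Genes marked in parental only numbered 83 with the nearest gene only and 125 at equal length, against 25, and genes in ROSA26 only 185 at equal length, against 629. Where the summit had to lie inside the window, CGGAAG was present in 83.6% of genes marked in both and 63.5% of those in ROSA26 only. Alternatives were labelled by the size of the change only, and a change of direction was not checked. Counts of marked genes in the 25 lists stayed within 1.5 times under both other distances (50 of 50 values). Leaving out chromosome 3, an alternative chosen after its values were seen, gave 98.3% and 76.1% shared and 621 ROSA26-only genes, and pairs with a −log10 q of at least 20 put chromosome 3 at -0.46 log2 against the others, as all pairs did. Peaks in 1 list only had medians of 62 and 61 reads, and the part of depth in them was not tested.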
